A study of Mus musculus with 48 samples.

Results

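In mice that carry the Huntington disease mutation, cortex libraries labelled Msh3-/- were compared with cortex libraries labelled Msh3+/-. The comparison takes in all expressed genes of 16 libraries, 8 labelled Q140 Msh3-/- and 8 labelled Q140 Msh3+/-, out of 48 libraries in the series. They were picked by their genotype labels alone, without any measured value, and 19547 genes had enough counts to be tested. RNA from cerebral cortex of mice aged 12 months on a C57BL/6 background was sequenced, 4 females and 4 males per genotype. All 16 mice carried the Q140 allele of Htt in 1 copy, a knock-in in which the mouse gene holds an expanded CAG repeat, so what the 2 groups share is Q140 and at least 1 mutant Msh3 allele. They differ in the number of mutant Msh3 alleles. The other groups used for reference were wild type, Msh3+/-, Msh3-/- and Q140 without an Msh3 mutation, with 8 libraries each. The labels do not give the nature of the Msh3 mutation or the repeat length in any mouse, and they number the libraries within sex without saying that each came from a mouse of its own. The p-values therefore measure the spread between these libraries.

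Huntington disease is caused by a long run of CAG codons in the first exon of Htt, which encodes huntingtin. MSH3 is a subunit of MutS beta, the mismatch repair complex that binds small loops of unpaired bases, and in mice that lack MSH3 the CAG run no longer lengthens in somatic cells as it otherwise does with age. The comparison asks whether loss of the second Msh3 allele shifts cortical gene expression in Q140 mice beyond what the first mutant allele does. The repeat itself was not measured here. The stretch of the unmutated mouse Htt gene that holds the repeat is shown to place the repeat; the long CAG run of the Q140 allele is not part of it. It lies in coding exon 1 of Htt (GRCm38, chr5:34761949-34761999, plus strand, from the longest GENCODE M21 transcript), and the capitals mark its run of 4 uninterrupted CAG codons, the first of which is codon 21.
Htt CAG tract: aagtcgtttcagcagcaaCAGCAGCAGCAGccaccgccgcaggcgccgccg

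Between libraries with 2 mutant Msh3 alleles and libraries with 1, in Q140 cortex, 4 genes differed, and all 4 lie on chromosome 13 within 1.49 Mb of Msh3. Msh3 itself rose, from 57.9 ± 3.01 to 95.3 ± 8.03 CPM (normalised counts scaled to the library total, mean ± SD, n = 8 per group). The falls given next are edgeR log2 fold changes put as percentages. Rasgrf2, an exchange factor that activates Ras and Rac, fell by 30.2%. Cmya5, which encodes the muscle and cytoskeletal protein myospryn, fell by 35.1%, and AW495222, a gene without a known protein, fell by 35.3%. EdgeR's quasi-likelihood test called these 4 of 19547 genes (0.0205%), 1 higher (0.00512%) and 3 lower (0.0153%), at a Benjamini-Hochberg adjusted p under 0.05. At an unadjusted p under 0.05 there were 484 genes (2.48%), 229 higher (1.17%) and 255 lower (1.30%).

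The 16 libraries held from 37.7 to 59.1 mega (M) counts, with a mean of 49.9 ± 7.59 M in Q140 Msh3-/- and 47.8 ± 5.62 M in Q140 Msh3+/-. Cortical excitatory neuron genes were high in each (Slc17a7 from 1280 to 1500 CPM) and the striatal genes Drd1 and Adora2a low (at most 6.94 and 2.56 CPM). Q140 Msh3+/- F1 stood apart from the rest: it was the shallowest, had more of the nuclear-retained transcripts Kcnq1ot1 (66.5 CPM against at most 53.5 in the others) and Pnisr (532 against at most 409), and a summed level of 16 meningeal genes of 88.2 CPM against a group median of 436. Kcnq1ot1 and Pnisr were chosen after the libraries had been seen, so they are no separate sign that Q140 Msh3+/- F1 differs. Q140 Msh3-/- M4 had a low meningeal sum too, 124 CPM against a group median of 464. On the first principal component Q140 Msh3+/- F1 lay at -60.4 and Q140 Msh3-/- M1 at -24.4. The other libraries lay between -4.81 and 14.1. Without Q140 Msh3+/- F1 and Q140 Msh3-/- M1, 3 genes were called by edgeR, 1 higher and 2 lower. AW495222 was no longer among them (adjusted p = 0.0577). The 4 genes are the points that stand above the rest in the plot of all genes.

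**Figure D1:**
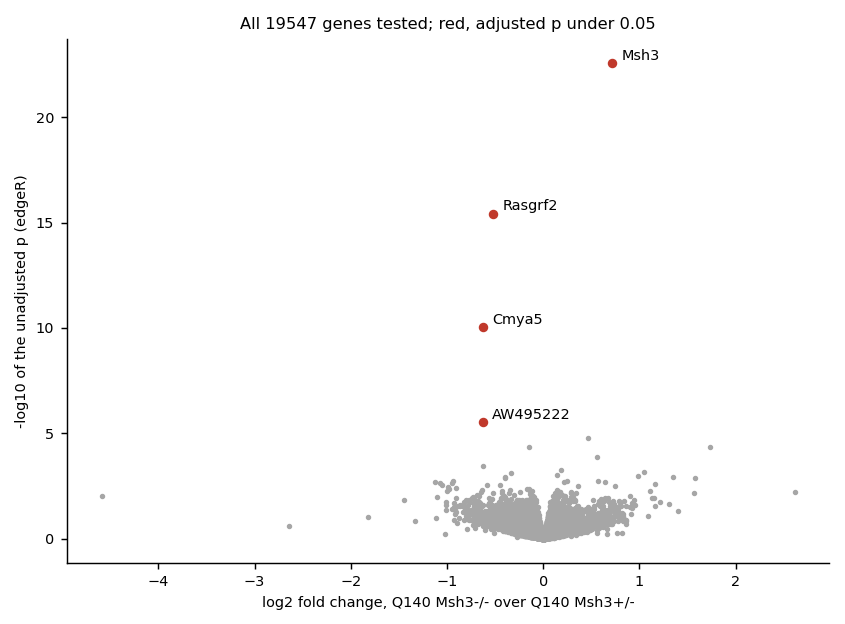
Log2 fold change of each of the 19547 genes tested, Q140 Msh3-/- over Q140 Msh3+/- (x axis), against the negative log10 of its unadjusted edgeR p (y axis). The 4 genes with an adjusted p under 0.05 are in red and named; grey points are the others, whose median distance from 0 is 0.044.

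Msh3 had 54.4 CPM in the lowest Q140 Msh3+/- library, 58.2 in the median and 61.2 in the highest, and 83.2, 96.0 and 109.7 CPM in Q140 Msh3-/-. The groups did not overlap. Its log2 fold change was 0.72 ± 0.0415 (standard error, SE; edgeR adjusted p = 5.35e-19), a 1.65-fold higher mean. In Q140 libraries without an Msh3 mutation it was 21.8 ± 0.979 CPM, so the mean stood 36.1 CPM higher in Q140 Msh3+/- than in Q140, and a further 37.4 CPM higher in Q140 Msh3-/-. The gene (chromosome 13, 92211872 to 92355003, minus strand, GRCm38) is counted as 1 unit, so these values do not show which exons the reads came from, nor whether they encode a protein. The gene-level count thus runs opposite to what the minus sign in the label would give if the transcript were lost, and all directions below are for libraries as labelled.

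Rasgrf2 had from 220 to 258 CPM in Q140 Msh3+/- with a median of 244, and from 157 to 201 CPM in Q140 Msh3-/- with a median of 163. Each of the 8 Q140 Msh3-/- libraries was below every Q140 Msh3+/- library, the highest being M4. The log2 fold change was -0.52 ± 0.044 (edgeR adjusted p = 3.65e-12). Q140 libraries with unmutated Msh3 had 315 ± 24.9 CPM, so the mean was lower by 73.3 CPM with 1 mutant allele and by a further 72.6 CPM with the second.

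Cmya5 was expressed at a lower level, from 9.60 to 13.3 CPM in Q140 Msh3+/- (median 12.4) and from 6.54 to 8.80 CPM in Q140 Msh3-/- (median 7.78), again without overlap. Its log2 fold change was -0.62 ± 0.077 (edgeR adjusted p = 6.03e-07), and it rested on 292 to 773 counts per library. Against 16.4 CPM in Q140, the mean stood 4.55 CPM lower in Q140 Msh3+/- and another 4.16 lower in Q140 Msh3-/-.

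AW495222 fell from a median of 3.53 CPM (range 2.82 to 5.73) to 2.42 CPM (1.99 to 2.94). The ranges touch: 7 of the 8 Q140 Msh3-/- libraries were below every Q140 Msh3+/- library, and the highest value of all, 5.73 CPM, was that of Q140 Msh3+/- F1, the library that stood apart. The log2 fold change was -0.63 ± 0.12 (edgeR adjusted p = 0.0143) on 91 to 217 counts per library. Without Q140 Msh3+/- F1 it was -0.52 (adjusted p = 0.0775), and the call was also lost without Q140 Msh3+/- F2 (adjusted p = 0.0572) or M1 (0.0559) or Q140 Msh3-/- F3 (0.0702), and when only the 16 libraries were fitted (0.179). AW495222 lies within Dmgdh, the gene of dimethylglycine dehydrogenase, on the opposite strand. Dmgdh had 1.04 ± 0.259 and 1.22 ± 0.4 CPM (log2 fold change 0.18 ± 0.188). The strand setting of the counting is not stated, so reads of AW495222 and Dmgdh may not have been told apart.

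**Figure D2:**
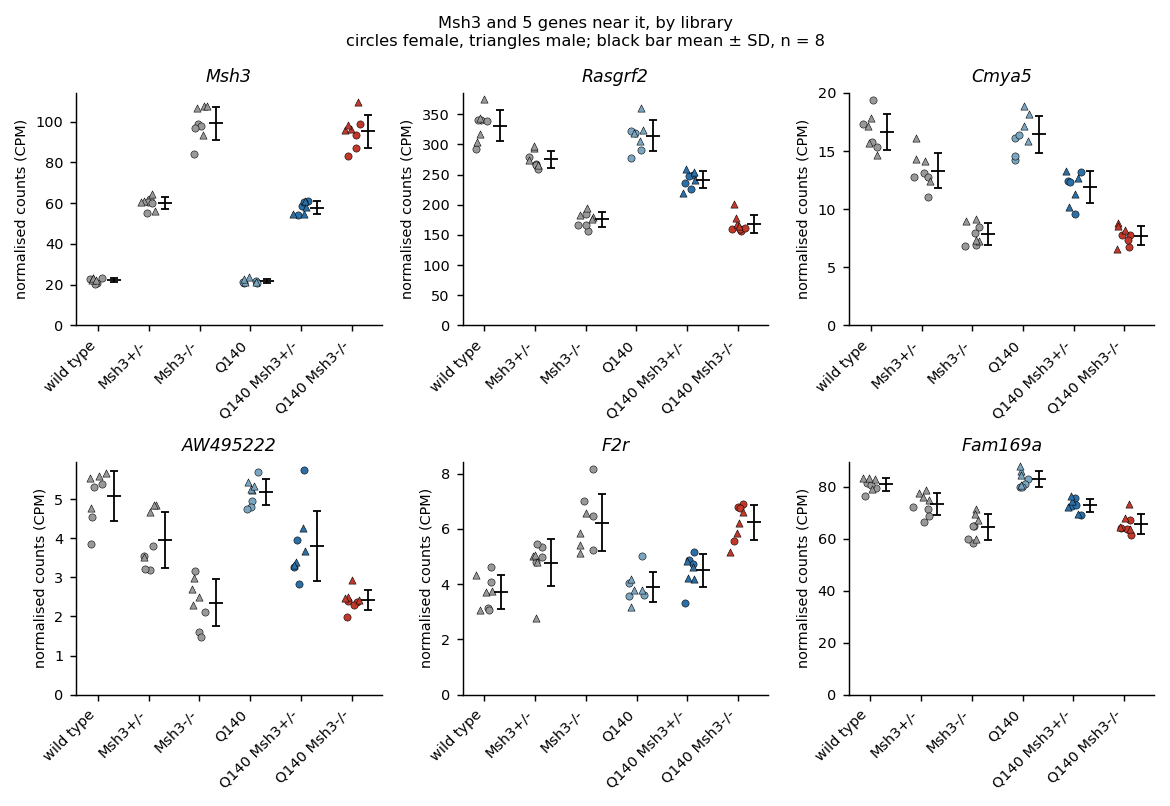
Normalised counts, CPM (y axis, from 0) of Msh3, Rasgrf2, Cmya5, AW495222, F2r and Fam169a in each of the 48 libraries by labelled genotype (x axis); circles are females, triangles males, and the black bar is the mean ± SD of 8 libraries. Msh3 stands at 21.8, 57.9 and 95.3 CPM with 0, 1 and 2 mutant alleles in Q140, and Rasgrf2 at 315, 241 and 169 CPM.

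Levels per unit length, as deposited FPKM, put Rasgrf2 far above the other called genes: 27.5 FPKM in Q140 Msh3+/- and 19.2 in Q140 Msh3-/-, against 5.15 and 8.5 for Msh3, 4.14 and 2.64 for AW495222, and 1.0 and 0.653 for Cmya5. The 250 bases upstream of the RefSeq start of the 3 genes that fell are shown because these genes moved together; RefSeq lists them on GRCm38.p6, all on the minus strand. The capitals mark CACGTG, 1 form of the E-box, and TGACG, a half-site of the cAMP response element, on either strand. Other forms of the E-box were not searched for and are not marked. Rasgrf2 spans chr13:92131829-92132078, Cmya5 chr13:93144725-93144974 and AW495222 chr13:93719176-93719425.
Rasgrf2: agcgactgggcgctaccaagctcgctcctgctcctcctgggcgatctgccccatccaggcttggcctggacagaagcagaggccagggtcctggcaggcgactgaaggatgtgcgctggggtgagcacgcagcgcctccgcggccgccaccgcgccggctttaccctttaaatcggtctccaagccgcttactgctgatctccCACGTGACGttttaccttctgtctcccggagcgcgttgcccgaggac
Cmya5: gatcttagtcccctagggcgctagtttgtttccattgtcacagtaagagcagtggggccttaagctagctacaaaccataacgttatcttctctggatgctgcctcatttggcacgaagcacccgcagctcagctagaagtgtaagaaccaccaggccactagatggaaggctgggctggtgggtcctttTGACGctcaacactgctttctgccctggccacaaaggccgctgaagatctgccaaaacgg
AW495222: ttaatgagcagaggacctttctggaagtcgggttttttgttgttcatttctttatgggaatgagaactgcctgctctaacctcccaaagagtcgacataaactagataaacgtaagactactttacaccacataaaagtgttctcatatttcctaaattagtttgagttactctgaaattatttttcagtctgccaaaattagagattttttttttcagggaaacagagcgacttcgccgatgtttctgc
The Rasgrf2 window had a GC content of 65.2%, that of Cmya5 52.8% and that of AW495222 36.8%, beside a median of 52.4% over 32851 windows of the same length. TGACG stood once in the Rasgrf2 and once in the Cmya5 window and not in that of AW495222, and 17.8% of all windows hold it. CACGTG stood once in the Rasgrf2 window, where it overlaps TGACG, and is in 6.02% of all windows. None of the 3 windows held GGGCGG (32.7% of all windows), CCAAT (33.8%) or TATAAA (12.4%). None of these motifs was found in all 3 windows.

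The same Msh3 genotypes were also compared without Q140, in 16 other libraries. EdgeR called 5 genes there (0.0256%), of which 4 fell, and 1121 genes had an unadjusted p under 0.05 (5.73%). The 4 genes called in Q140 were among them. Msh3 had the same log2 fold change, 0.72 ± 0.0414, Rasgrf2 had -0.65 ± 0.0443, Cmya5 -0.76 ± 0.0754 and AW495222 -0.73 ± 0.119. Fam169a was called only without Q140 (-0.18 ± 0.0331, edgeR adjusted p = 0.00412), where it had 73.3 CPM in Msh3+/- and 64.5 in Msh3-/-; with Q140 it had -0.15 ± 0.033 (adjusted p = 0.121), and the difference between the 2 effects was 0.04 ± 0.0468 (unadjusted p = 0.456).

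Whether the effect of the second mutant allele differed with Q140 was tested by an interaction term over these 32 libraries. EdgeR called 0 of 19547 genes (0%), and 982 had an unadjusted p under 0.05 (5.02%). DESeq2 and limma voom called 0 as well. The interaction was 0.00 ± 0.0585 for Msh3, 0.13 ± 0.0626 for Rasgrf2 (unadjusted p = 0.0428, adjusted p = 0.919), 0.13 ± 0.108 for Cmya5 and 0.11 ± 0.17 for AW495222.

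Effects in females and in males were also estimated, from 1 fit of the 16 libraries with an interaction with sex. Msh3 differed by 0.62 ± 0.06 in females and 0.81 ± 0.0594 in males, Rasgrf2 by -0.59 ± 0.0574 and -0.45 ± 0.057, Cmya5 by -0.68 ± 0.114 and -0.57 ± 0.109, and AW495222 by -0.78 ± 0.182 and -0.49 ± 0.172. EdgeR called 3 genes in the females (0.0164%; Msh3, Rasgrf2 and Cmya5) and 2 in the males (0.0109%; Msh3 and Rasgrf2). The interaction with sex was called for 0 of 18316 genes (0%) by edgeR, with 982 at an unadjusted p under 0.05 (5.36%), and for 0 by DESeq2 and limma voom. That of Msh3 was 0.19 ± 0.0842 (unadjusted p = 0.0375, adjusted p = 0.858).

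The called genes are neighbours. Measured between the lower coordinates of the genes, Rasgrf2 lies 0.331 Mb below Msh3 in coordinates, Cmya5 0.829 Mb and AW495222 1.49 Mb above it. Of 211 tested genes within 20 Mb of Msh3, Msh3 left out, these 3 were called, and 15 (7.11%) had an unadjusted p under 0.05, 7 higher and 8 lower. Of the 19335 other genes, 468 (2.42%) had one and none was called. Of the 15 genes near Msh3, 10 had the same sign without Q140 and 8 also had an unadjusted p under 0.05 there. Of the 468 others, 195 (41.7%) had the same sign. Within 10 Mb there were 118 genes, 13 with an unadjusted p under 0.05, and within 40 Mb 420 genes and 19; the 3 called genes were the same count in each window. The 2 comparisons of Msh3 genotypes share no library. Whether these differences come from the Msh3 mutation or from DNA that travels with it on chromosome 13 cannot be told apart with these labels.

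**Figure D3:**
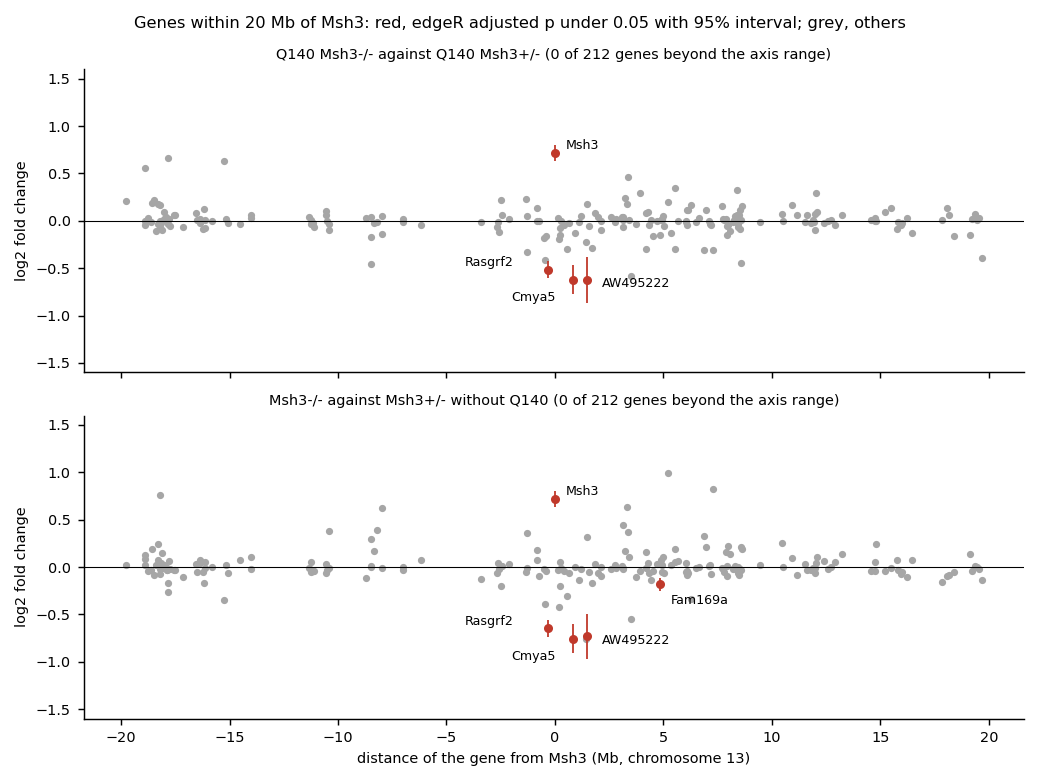
Log2 fold change (y axis) of the 212 tested genes within 20 Mb of Msh3, Msh3 included, by distance from Msh3 along chromosome 13 (x axis, Mb), with Q140 (top) and without (bottom). Red points passed an adjusted p of 0.05 and carry their 95% interval; they lie between -0.331 Mb and 1.49 Mb, except Fam169a at 4.86 Mb without Q140.

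Beside the called genes, F2r came closest to the threshold. F2r, the thrombin receptor PAR1, had a median of 4.68 CPM in Q140 Msh3+/- (3.30 to 5.17) and 6.41 CPM in Q140 Msh3-/- (5.18 to 6.89). The groups did not overlap, with 5.17 CPM as the highest of one and 5.18 as the lowest of the other, and the log2 fold change was 0.46 ± 0.0968 (edgeR adjusted p = 0.062). It passed with no filter on low counts (adjusted p = 0.0209) and with DESeq2 (0.0396). Its value without Q140 was 0.37 ± 0.0954. F2rl2, the thrombin receptor PAR3 beside it, had -0.59 ± 0.187, from 1.66 to 1.11 CPM, and without Q140 -0.55 ± 0.18. Crhbp, which encodes the binding protein of corticotropin-releasing hormone, had 0.25 ± 0.0745, from 15.5 to 18.3 CPM, and 0.17 ± 0.0746 without Q140. Ankrd34b had -0.15 ± 0.0496 and -0.20 ± 0.0498, and Zcchc9 -0.17 ± 0.0551 and -0.04 ± 0.0553. None of these passed the test in Q140 in the edgeR fit on which the report rests. Of the other genes of the region with an unadjusted p under 0.05, Vcan, the matrix proteoglycan versican, had -0.11 ± 0.0533, and without Q140 -0.02 ± 0.0528. The remaining 5 were above 0 with Q140 and below 0 without it: Gm8185 (0.63 ± 0.313), Marveld2 (0.33 ± 0.164), Atp6ap1l (0.23 ± 0.0926), Poc5 (0.08 ± 0.0387) and Trim23 (0.07 ± 0.0331). Col4a3bp, a ceramide transporter, had -0.04 ± 0.0327 and Bhmt2, a homocysteine methyltransferase, -0.23 ± 0.203. Bhmt2 had -0.76 ± 0.2 without Q140 (adjusted p = 0.543), and the difference was 0.53 ± 0.287 (unadjusted p = 0.068).

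The proteins that act with MSH3 were measured next. Of 23 tested mismatch repair genes, Msh3 was the only one called. Mlh3, a MutL subunit needed for repeat expansion, had -0.01 (95% interval -0.10 to 0.08) and Pms2, the MutL endonuclease, 0.03 (-0.07 to 0.12). Msh6, a subunit of the other MutS complex, had 0.10 ± 0.049, from 19.9 to 21.4 CPM, with an unadjusted p of 0.0455. Among 27 tested genes otherwise known to modify CAG repeat length or age at onset, 0 were called and 19 were below 0, with a median of -0.017. Fan1, a nuclease that slows expansion, had 0.04 ± 0.0673. Of 23 genes of the p53 response to DNA damage, 0 were called, and Cdkn1a had -0.12 ± 0.194 and Mdm2 0.05 ± 0.0394. Over all 19547 genes the median was 0.0015, with 9968 above 0.

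Htt, whose knock-in allele is present in both groups, had 242 ± 11.6 CPM in Q140 Msh3+/- and 251 ± 12.2 in Q140 Msh3-/- (log2 fold change 0.05, 95% interval -0.02 to 0.12). Of 26 genes of huntingtin and its partners 0 were called, with a median of -0.0027. Rasgrf2 was the only one called of 25 Ras exchange factors and Ras GTPases; its close relative Rasgrf1 had 500 ± 8.53 and 495 ± 29.1 CPM (-0.02 ± 0.0606), and the diacylglycerol-regulated factor Rasgrp1 -0.01 ± 0.0372.

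Genes that differ between Q140 and wild type give a second reading. Without any Msh3 mutation, 20 genes were called between Q140 and wild type, 8 higher and 12 lower in Q140 (0.102% of those tested); those 16 libraries are not in the comparison of Msh3 genotypes. Among them Abhd1, Gm2420, Cgref1 and Atraid start between 30933143 and 32720330 on chromosome 5, below Htt at 34761740 in coordinates. Whether they differ through Q140 or through DNA that travels with the knock-in was not tested. Prl, a pituitary gene, was 34 CPM in wild type M2 and 5.6 in the next wild-type library. Of the 20 genes, 0 were called between Q140 Msh3-/- and Q140 Msh3+/-, and 3 had an unadjusted p under 0.05. The sign was opposite to that of Q140 in 15 (75%), beside 50.1% over all tested genes. Among the 100 genes of smallest p in Q140 against wild type, 62 had the opposite sign, 5 of them and 1 of the other 38 with an unadjusted p under 0.05; 3 of these 5 are the genes already counted among the 20. Over all tested genes 253 of opposite and 230 of the same sign had such a p. The median change against the direction of Q140 was 0.041 log2 units in the 20 genes (a signed value of -0.0411), beside a median Q140 effect of 0.49. Without Q140, 4 of the 20 had the opposite sign.

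The 3 genes were all higher in Q140 than in wild type. Tmc3, of the transmembrane channel-like family, went from 0.512 CPM in wild-type libraries to 1.35 CPM in Q140. It was 1.06 to 1.35 CPM in Q140 Msh3+/- (median 1.20) and 0.428 to 1.08 CPM in Q140 Msh3-/- (median 0.779), on 18 to 67 counts per library. The groups overlap in M1 of Q140 Msh3-/-, and the log2 fold change was -0.62 ± 0.162 (unadjusted p = 0.000344, edgeR adjusted p = 0.748). Without Q140 it was -0.56 ± 0.251, and the difference was -0.07 ± 0.313.

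Enpp6, a choline phosphodiesterase of newly forming oligodendrocytes, was at 2.0 CPM in wild-type and 3.96 in Q140 libraries, with a median of 3.29 (2.50 to 4.55) in Q140 Msh3+/- and of 2.57 (2.07 to 3.48) in Q140 Msh3-/-. The ranges overlap, with a log2 fold change of -0.40 ± 0.117 (unadjusted p = 0.00131). Zfp488, a transcription factor of the oligodendrocyte lineage, had 2.11 CPM in wild-type libraries, 2.98 in Q140, 2.7 ± 0.396 in Q140 Msh3+/- and 2.16 ± 0.23 in Q140 Msh3-/- (-0.33 ± 0.0931, unadjusted p = 0.00076). Their values without Q140 were 0.10 ± 0.134 and 0.04 ± 0.0972. The interactions were -0.50 ± 0.178 (edgeR unadjusted p = 0.00674) and -0.37 ± 0.135 (0.00855), neither of which passed adjustment over all genes. Both genes were singled out by their difference with Q140, which is part of the interaction. These unadjusted p-values are therefore not independent of the choice.

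**Figure D4:**
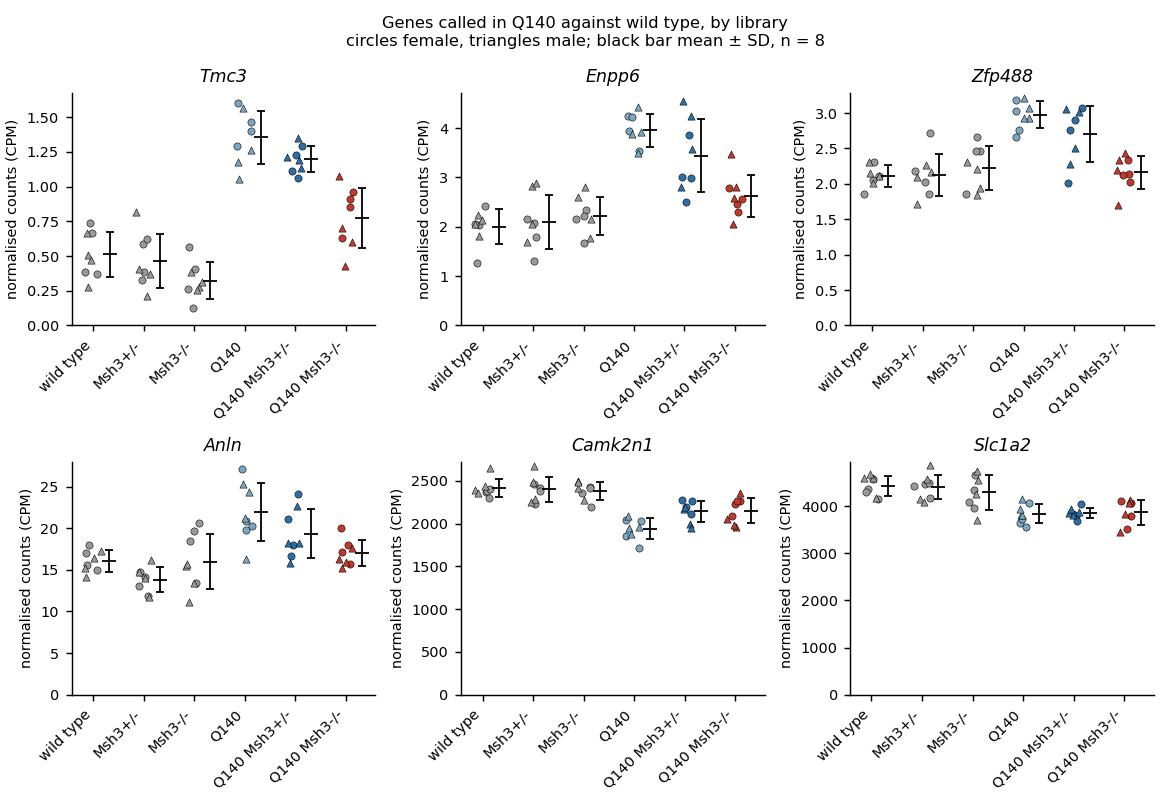
Normalised counts, CPM (y axis, from 0) of 6 genes called in Q140 against wild type, in each of the 48 libraries by labelled genotype (x axis); circles are females, triangles males, black bars the mean ± SD of 8. Tmc3, Enpp6 and Zfp488 have lower means in Q140 Msh3-/- (0.771, 2.63 and 2.16 CPM) than in Q140 Msh3+/- (1.20, 3.44 and 2.7), while Camk2n1 and Slc1a2 differ by under 0.01 on the log2 scale.

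Several other Q140 genes had estimates near 0. Camk2n1, an inhibitor of the calcium and calmodulin dependent kinase CaMKII, stood at 2414 CPM in wild-type and 1941 in Q140 libraries, and at 2146 and 2153 CPM in Q140 Msh3+/- and Q140 Msh3-/- (log2 fold change 0.00, 95% interval -0.07 to 0.08). Camk2a, the alpha subunit of that kinase, had -0.02 (-0.08 to 0.05). Slc1a2, the main glutamate transporter of astrocytes, had 0.01 (-0.08 to 0.09), and Glul, glutamine synthetase, 0.03 (-0.05 to 0.11). Ddit4l, an inhibitor of mTOR signalling, had 0.06 (-0.12 to 0.25) beside a Q140 effect of -0.58, and Abhd1 0.01 (-0.15 to 0.18) beside 1.01. For Camk2n1, Ddit4l and Abhd1 the interval of the difference does not reach the size of the Q140 effect. Larger estimates, against the direction of Q140 and not called, were those of Anln, which encodes anillin (-0.18 ± 0.0965 beside a Q140 effect of 0.45), Cartpt, the CART peptide precursor (0.16 ± 0.104 beside -0.49), and the MHC class I gene H2-Bl (0.31 ± 0.166 beside -0.82).

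Cell type and pathway genes were then read list by list. Across 39 lists only Msh3 and Rasgrf2 were called. Of 24 tested genes of oligodendrocyte precursors and new oligodendrocytes, 19 were below 0 with a median of -0.039, and 4 had an unadjusted p under 0.05, all lower: Zfp488, Enpp6, Cnksr3 (-0.36 ± 0.126) and Vcan. This list holds genes known from earlier results of these libraries, so it is no independent sign of a direction. The defining precursor genes Pdgfra (-0.04 ± 0.0504) and Cspg4 (-0.04 ± 0.0603) and the lineage factor Olig1 (-0.02 ± 0.0625) had small estimates. The summed level of the list ran from 762 to 869 CPM in Q140 Msh3+/- and from 744 to 863 in Q140 Msh3-/-. In these bulk samples fewer cells of a type and less RNA per cell cannot be told apart. Among 25 myelin genes of mature oligodendrocytes 14 were above 0, and Mbp, myelin basic protein, had 0.04 ± 0.0824. Aspa, aspartoacylase, had 0.26 ± 0.105, with overlapping groups.

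Of 22 layer 6 genes, 20 were below 0 with a median of -0.12, beside 9579 of all 19547 genes below 0. None of the 22 had an unadjusted p under 0.05. How far members of this or any other list varied together between libraries was not tested, so such counts are not to be read as separate readings. Foxp2 had -0.17 ± 0.139 and Syt6 -0.12 ± 0.116. The same list had a median of 0.017 without Q140. Of 22 layer 5 genes 16 were below 0 (median -0.034), with 2 at an unadjusted p under 0.05, Il1rapl2 (-0.19 ± 0.0815) and Sulf2 (-0.11 ± 0.0495). Of 24 upper-layer genes 17 were above 0 (median 0.026), and Unc5d, a netrin receptor, had 0.12 ± 0.0533. Among 31 interneuron genes 20 were above 0, with a median of 0.01. Adarb2 had 0.11 ± 0.053 (edgeR unadjusted p = 0.0404), the only member under 0.05, and Gad1 had 0.10 ± 0.0499. The peptide gene Sst had -0.01 ± 0.0482 and the calcium-binding protein gene Pvalb 0.02 ± 0.0767. The 26 striatal genes had a median of -0.0052, 13 above 0.

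Of 26 immediate early genes, which neurons induce when active, 20 were above 0 with a median of 0.12 and none had an unadjusted p under 0.05. Their spread between libraries was wide: Fos had 53.6 ± 15.2 and 65.3 ± 16.1 CPM (0.27 ± 0.327), Arc 461 ± 136 and 538 ± 143 (0.22 ± 0.32), and Btg2 18.6 ± 5.28 and 25.4 ± 9.61 (0.42 ± 0.331). The median of the list was -0.19 without Q140. The 13 genes of the mitochondrial genome were all below 0, with a median of -0.13, beside 0.036 without Q140; they are transcribed together as long precursors, so they are not 13 separate readings. mt-Nd3, a subunit of respiratory complex I, had -0.56 ± 0.217 on 13 to 57 counts per library, the single member with an unadjusted p under 0.05 (0.0122), mt-Nd4 of the same complex -0.18 ± 0.11, and mt-Co1, a cytochrome c oxidase subunit, -0.08 ± 0.0853. Their summed level ran from 34100 to 50400 CPM in Q140 Msh3+/- and from 31200 to 48600 in Q140 Msh3-/-. Of 48 nuclear genes of oxidative phosphorylation 33 were above 0, with a median of 0.013. Of 31 clustered protocadherin genes, the cell surface adhesion molecules, 25 were above 0 (median 0.067, and -0.069 without Q140).

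Of 25 astrocyte genes 18 were above 0 with a median of 0.015, and Aqp4, the water channel, had 0.04 ± 0.078. The 20 reactive astrocyte genes were split 10 to 10; Serpina3n, a serine protease inhibitor of reactive astrocytes, had a median of 9.74 CPM (8.59 to 12.5) and of 9.82 (8.24 to 49.3), the top value being 1 library. The 24 microglia genes were also split evenly, at a median of -0.0026. Of 38 potassium and sodium channel genes 28 were above 0 (median 0.025), and Scn1a, a sodium channel subunit, had 0.14 ± 0.0642. Of 31 cholesterol synthesis genes 20 were above 0 (median 0.025), and of 61 cytosolic ribosomal protein genes 30, with a median of -0.00013. Tissue next to cortex was read by its own lists: the 16 meningeal genes had a median of 0.019, the 11 choroid plexus genes -0.007, and the 5 tested blood genes -0.89, all 5 below 0, with Hbb-bt at -1.45 ± 0.58 and 0.395 against 0.148 CPM. The lists not described so far had 0 called members and medians from -0.0156 to 0.0371, other than the pituitary list at -0.51 over 4 genes. The part of blood or meningeal RNA in the other values was not tested.

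**Figure D5:**
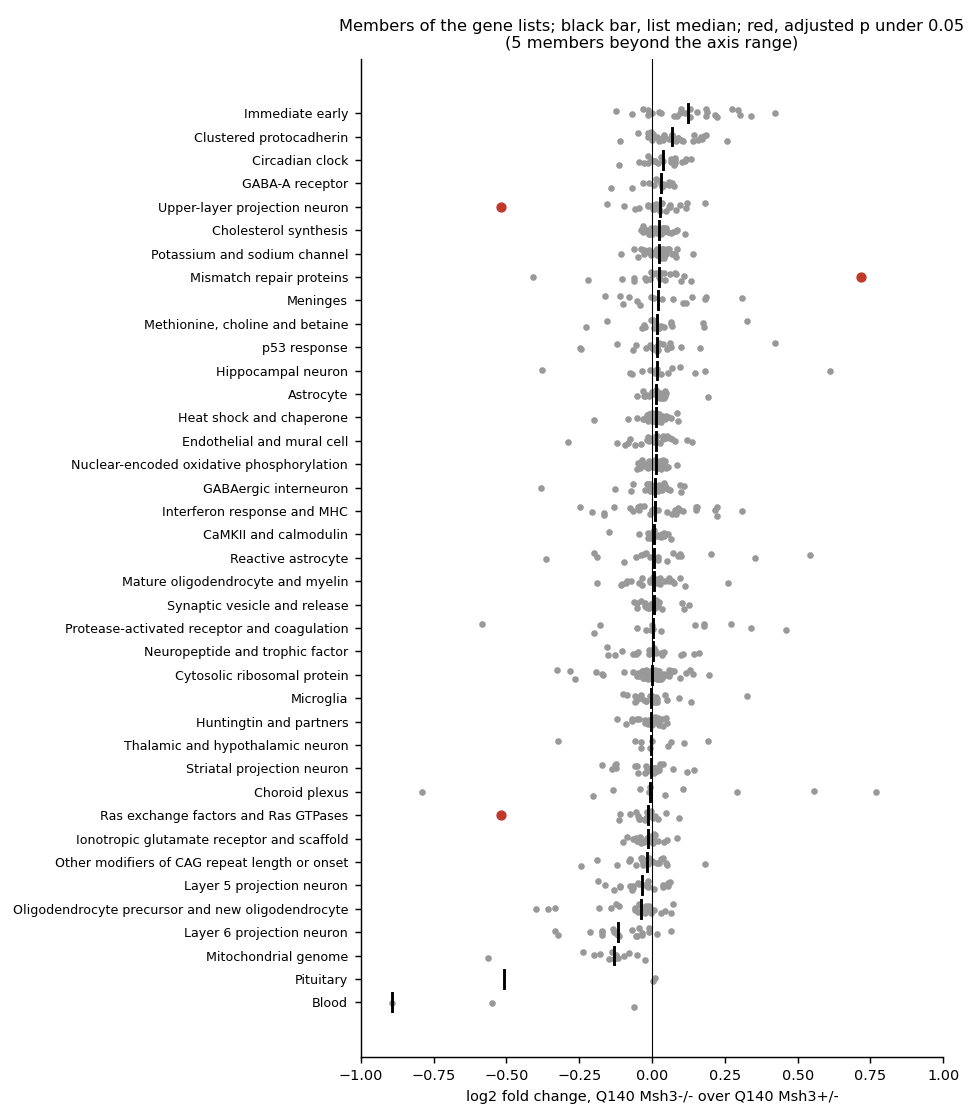
Log2 fold change (x axis), Q140 Msh3-/- over Q140 Msh3+/-, of each tested member of the 39 gene lists (rows, ordered by median). The black bar is the list median, red points passed an adjusted p of 0.05 (Msh3, and Rasgrf2 in both of its lists), and 5 members lie beyond the axis limits of -1 and 1; the list medians other than those of the pituitary and blood lists lie between -0.13 and 0.12.

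Away from chromosome 13 no gene passed. The rising genes of smallest p there with a mean count of at least 20 were Baiap2l2, which encodes a membrane-bending protein (0.55 ± 0.134, from 1.31 to 1.92 CPM, edgeR adjusted p = 0.324), Nfxl1 (0.19 ± 0.0504), Gemin4, of the SMN complex (1.05 ± 0.29), and Pura, which encodes a nucleic acid binding protein (0.14 ± 0.0407, from 39.9 to 44.0 CPM). The falling ones were Tmc3, Zfp488, Tbata (-0.40 ± 0.117) and Enpp6. Baiap2l2 had -0.15 ± 0.137 without Q140, Pura -0.04 ± 0.0405 and Tbata 0.20 ± 0.124, so these estimates were not of the same sign there.

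How small a difference these libraries could show varied with expression. The median SE of the log2 fold change was 0.0735 over all genes. For 14877 of 19547 genes (76.1%) the 95% interval lay within 0.5 on either side of 0, that is within a 1.41-fold difference. Among the 13714 genes with a mean count of at least 100 these were 13455 (98.1%), and among the 5833 genes below that 1422 (24.4%). These shares describe the width of the intervals and are not a limit of detection. The median half-width was 0.148 over all genes and 0.106 at a mean count of at least 100. Fam169a, at -0.18, was called without Q140 in the same fit.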

How the data were processed

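Whole-number counts per Ensembl gene and FPKM values, deposited by the authors for 48 cortex libraries, were used: counts for all tests, FPKM for levels per gene length. Per the submitters' processing notes, the tools were STAR 2.7.5c, SAMtools 1.10 and HTSeq 0.12.3 and the builds GRCm38, also given as mm10; the annotation release and the strand setting are not given in the sources used here. Libraries were made with a stranded TruSeq kit, per the labels' protocols. The extraction protocol speaks of striatum at 6 months and every other label of cortex at 12 months, which was used. Gene positions are from GENCODE M21.

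Genes were kept with filterByExpr (minimum count 10, minimum total 15). With TMM normalization, all 48 libraries entered 1 edgeR 4.0.16 quasi-likelihood model (R 4.3.3), with terms for 6 groups and for sex. Effects by sex came from the 16 libraries alone. Tests were two-sided, with p-values adjusted by Benjamini and Hochberg over all genes tested. CPM are counts scaled to the normalised library total. Alternatives were DESeq2 1.42.0, limma 3.58.1 voom, other filters and size factors, plate and replicate terms, a block on name prefix, and leaving out each library. Some library names share a prefix, within and across groups, and the labels do not say what it stands for. As a random block in limma voom the prefix had a consensus correlation of 0.1. The fit was tested on simulated counts.

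The comparison, the lists and the single genes were chosen with earlier results of these data known. Genes were named from the following: Msh3, Htt and 19 further fixed genes, every called gene, the 5 rising and 5 falling uncalled genes of smallest p (mean count of 20 or more in the higher group, no gene-model names), the 2 members of each list with the smallest p, genes called in Q140 against wild type, and genes within 20 Mb of Msh3 with an unadjusted p under 0.05; other list members are named as well-known members of their list, after their values had been seen. Upstream sequences are from RefSeq on GRCm38.p6. Some genes are not reported here.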

Additional observations from a re-analysis of the deposited data

Results flagged for a closer look

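Among the genes named by rule, 218 groups of 8 libraries were examined for a single library far from the others, and 13 had one; chance alone gives about 1 in 20, or 10.9. Among genes near Msh3, Rasgrf2 was 201 CPM in Q140 Msh3-/- M4, above 178 in the next library, and F2rl2 was 1.83 CPM in Q140 Msh3-/- F1, above 1.24. Serpina3n was 49.3 CPM in Q140 Msh3-/- M3 against at most 10.9 in the other 7, and Btg2 was 48.3 CPM in M4 of that group, above 25.2. Emp1 was 1.55 CPM in Q140 Msh3-/- F2, above 1.13, Hbb-bt 0.754 CPM in F4, above 0.238, Gm2420 0.712 CPM in F1, above 0.465, and Cgref1 13.4 CPM in M3, above 11.5. In Q140 Msh3+/-, F1 had the highest Gemin4 (0.661 CPM, next 0.311) and the highest Rapgef6 (48.7, next 44.5). M4 of that group had the lowest Slc4a4 (172 CPM, next 192) and the lowest Gphn (60.3, next 63.9), and M1 the highest Prl (2.4 CPM, next 0.822).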

How the results depend on the processing

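Over the 12 other fits of Q140 Msh3-/- against Q140 Msh3+/-, 3 to 6 genes were called, and leaving out 1 library in turn gave 3 to 6. Msh3, Rasgrf2 and Cmya5 were called in each of 29 fits, that of the report included, and AW495222 in 23. F2r was called in 6 and Fam169a in 3, and Gm17324, a gene model named after its values were seen (0.0785 against 0.255 CPM), in 2. For the effect in males Cmya5 was not called (edgeR adjusted p = 0.167), nor was AW495222 for the effect in either sex (adjusted p of at least 0.96). Replicate numbers are counted within sex and did not pair the libraries (correlations of same-numbered deviations from -0.286 to 0.157), and with the replicate block 5 genes were called in place of 4, F2r being the one added (adjusted p = 0.0236). Without Q140, the plate row term gave 8 calls in place of 5, and the cause was not tested. Both interactions gave 0 calls in every fit run. No result that was called, or came to be called, changed sign. Among the genes described, Gemin4 rested on 6 to 53 counts per library, Gm8185 on 5 to 18, Hbb-bt on 0 to 59 and Tmc3 on 18 to 67, and 5833 genes had a mean count under 100. The fit without the 2 libraries that stood apart was chosen after seeing the data.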
